A study of Mus musculus with 11 samples.

Results

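Imprinted genes are transcribed mainly or only from the allele inherited from a single parent. The account covers a list of 40 such mouse genes, named without a rule on their values but with earlier results of these data known. They were followed on 11 Affymetrix mouse arrays. A probe annotated with a single gene symbol was available for 35 of the 40, out of 19938 genes measured in this way, and each of the 35 had a single such probe. Snrpn, Ube3a and Gnas were annotated only on probes that carry several symbols, and H19 and Zrsr1 had no listed probe, so no value is given for these 5 genes. By the parent whose allele is active in mouse, 18 of the 35 are paternally expressed and 15 maternally expressed, whereas for Inpp5f and H13 the active allele depends on the transcript. The arrays measured the sum of both alleles, and nothing in the values separates them. For Ascl2, Cd81, Tssc4, Dcn and Gatm imprinting is known mainly from the placenta or yolk sac, so the class describes the gene and not its state in these samples.

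The samples were CD1 outbred mouse embryos without any stated mutation or treatment, all at E8.5, taken by laser capture microdissection: neuroepithelium was put on 3 arrays, neural crest on 5 and paraxial mesoderm on 3. The submitters write of single cells, but how many cells and which embryo each array stands for is not labelled. Where embryos were shared within a tissue, p-values between tissues are too small. If all arrays of a tissue came from 1 embryo, that tissue would count as 1 sample, whatever the number of cells per array. Each deposited value is the ratio of an array to a reference of its own probe that lies near the middle of the arrays, and 34 of the 35 genes had an array at exactly 1 (within 1e-05). A ratio therefore gives no expression level: a gene silent everywhere and a gene equally active everywhere both sit at 1. A lower ratio may come from fewer expressing cells or from less RNA per cell, which cannot be told apart here. Ratios of at least 4 are called high and ratios of at most 0.25 low, limits set with the values known.

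The tissue labels were checked against marker genes. Of 7 neural crest markers Snai1 was high on all 5 crest arrays and on no other. Tfap2b was high on crest arrays 2, 3 and 5 and also on neuroepithelium array 3 (22.6), Sox9 on crest arrays 2 and 5 and Sox10 on crest array 5, while Foxd3, Tfap2a and Ets1 were high on no array. The 7 paraxial mesoderm markers, among them Meox1, Tcf15 and Tbx6, lay within 2-fold of their reference on all 11 arrays. No neuroepithelium marker was high on a neuroepithelium array, and Nes, of the same list, was high on crest array 3 (8.48). Epcam (37.4 to 41.9), Krt8 (33.9 to 35.2) and Krt18 (72.4 to 91.6), all taken here as surface ectoderm markers, were high on all 3 neuroepithelium arrays. Krt8 was also high on crest array 3 and mesoderm arrays 2 and 3, and Krt18 on mesoderm array 2. The source of these values was not tested. Paraxial mesoderm array 1 stood apart through red blood cell genes: 6 of 6 primitive erythrocyte markers were high there, with a summed ratio of 649 against 5.76 to 6.68 on the other 10 arrays. That array also had the most high genes of all genes measured, 1617, and paraxial mesoderm array 3 the fewest, 381.

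Imprinting is mostly set in the germ line by DNA methylation of control regions. This methylation is kept through early development when the zinc finger protein ZFP57 binds methylated copies of the letters TGCCGC and recruits TRIM28. Many imprinted genes sit in clusters that share such a control region. Paternally expressed genes such as Igf2 and Mest tend to promote growth of the embryo, and maternally expressed genes such as Cdkn1c, Phlda2, Igf2r and Grb10 tend to restrain it.

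The promoters of 3 genes are shown for the contrast in their values described below: Mest was lower on each paraxial mesoderm array than on any other array, its neighbour Copg2 stayed near 1 throughout, and Phlda2 was high on some arrays of all 3 tissues. The windows run from 250 bases before to 50 bases after a RefSeq start (build GRCm38.p6), 5′ to 3′ on the strand of the gene, with each match to TGCCGC or its reverse complement GCGGCA in capitals. Mest has an upstream start (chr6:30733256-30733555, plus strand) and a downstream start (chr6:30737800-30738099, plus strand). The Copg2 window is chr6:30896745-30897044 and the Phlda2 window chr7:143502475-143502774, both on the minus strand.
Mest upstream: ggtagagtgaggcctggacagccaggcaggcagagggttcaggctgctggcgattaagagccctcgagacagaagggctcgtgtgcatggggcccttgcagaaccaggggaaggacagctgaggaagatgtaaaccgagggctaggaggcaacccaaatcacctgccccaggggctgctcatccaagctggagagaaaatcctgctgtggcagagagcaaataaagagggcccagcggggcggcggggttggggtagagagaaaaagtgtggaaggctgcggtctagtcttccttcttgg
Mest downstream: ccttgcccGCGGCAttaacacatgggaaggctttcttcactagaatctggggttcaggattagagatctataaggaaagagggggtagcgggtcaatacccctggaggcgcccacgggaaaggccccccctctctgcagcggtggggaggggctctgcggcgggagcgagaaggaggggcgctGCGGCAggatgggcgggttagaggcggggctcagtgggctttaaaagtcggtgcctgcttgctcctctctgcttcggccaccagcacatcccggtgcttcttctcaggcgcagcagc
Copg2: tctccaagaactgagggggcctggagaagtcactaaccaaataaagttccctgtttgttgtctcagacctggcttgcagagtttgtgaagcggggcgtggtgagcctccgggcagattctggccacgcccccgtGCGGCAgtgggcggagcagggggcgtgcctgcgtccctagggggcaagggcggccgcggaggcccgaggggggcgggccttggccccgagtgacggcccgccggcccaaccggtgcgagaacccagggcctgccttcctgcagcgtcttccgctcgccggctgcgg
Phlda2: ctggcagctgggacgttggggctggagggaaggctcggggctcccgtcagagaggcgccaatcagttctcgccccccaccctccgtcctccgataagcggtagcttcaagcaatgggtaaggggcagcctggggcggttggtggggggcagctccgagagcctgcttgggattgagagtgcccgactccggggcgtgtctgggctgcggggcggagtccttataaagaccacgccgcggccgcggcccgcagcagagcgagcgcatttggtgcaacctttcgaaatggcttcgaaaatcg
The downstream Mest window held 2 matches and 17 CG pairs, the upstream window 0 matches and 8 CG pairs, the Copg2 window 1 match and the Phlda2 window 0. Of the 35 genes 28 had a window in the RefSeq table, and 9 of them (32.1%) held a match in at least 1 window. By window, 10 of 39 (25.6%) held a match, against 11.6% of all 32851 promoter windows. The median number of CG pairs was 15 in the windows of these genes and 7 in all windows, and the letters searched hold a CG pair themselves. Some windows of a gene overlap, so they are not independent. The matches describe these windows and show nothing about binding.

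Most imprinted genes stayed close to their reference. Within 2-fold on all 11 arrays were 21 of 35 (60.0%), against 71.8% of all genes. Among them were the whole Peg3 cluster as measured here, with the zinc finger gene Peg3, the ubiquitin protease gene Usp29 and Zim1. So were Magel2, Mkrn3 and Peg12 of the Prader-Willi region, the growth-restraining genes Igf2r, a receptor that clears IGF2, and Grb10, an adaptor that dampens insulin receptor signalling. The potassium channel gene Kcnq1, the trophoblast regulator Ascl2, the retrotransposon-derived genes Peg10 and Rtl1, and the zinc finger gene Plagl1 also lay there. The narrowest of these was Ppp1r9a (0.960 to 1.03) and the widest upward Impact, a regulator of translation, at 1.82 on neuroepithelium array 2. The remaining genes of this group were Copg2, the ubiquitin ligase adaptor gene Asb4, the Ras activator gene Rasgrf1, Nap1l5, the matrix proteoglycan gene Dcn and Slc38a4. By class, 12 of the 18 paternally and 9 of the 15 maternally expressed genes lay within these limits, and neither Inpp5f nor H13 did. For all 21 the ratios cannot tell a silent gene from a steadily active one.

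**Figure D1:**
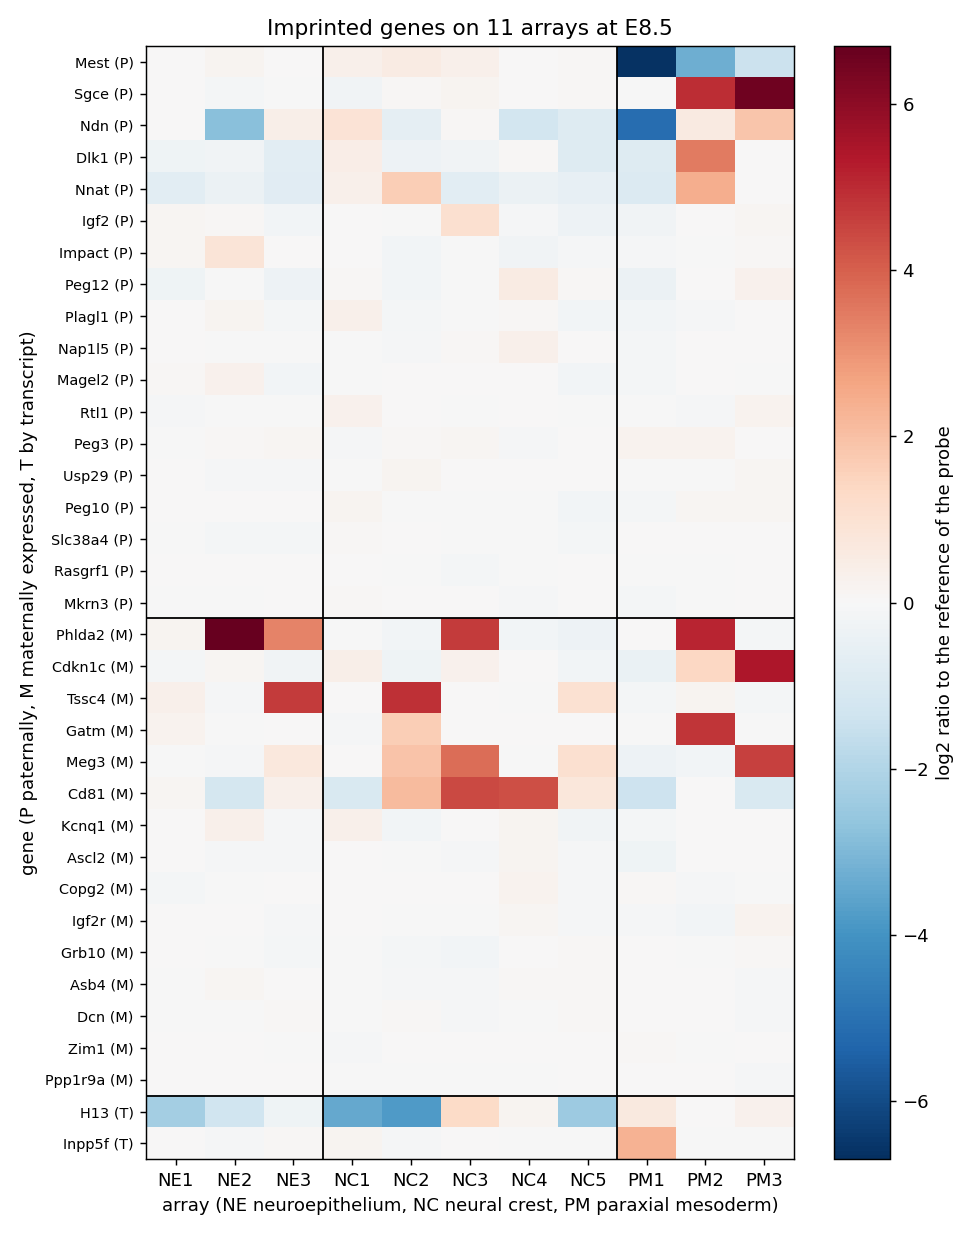
Log2 ratio of each of the 35 imprinted genes (rows, by active parental allele, then by largest deviation) on the 11 arrays (columns NE neuroepithelium, NC neural crest, PM paraxial mesoderm). Red is above and blue below the reference of the probe; Mest is blue on all 3 PM columns, Sgce is red on PM2 and PM3, and 21 rows stay within 2-fold throughout.

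High values were found for 10 of the 35 genes (28.6%) on at least 1 array, against 21.7% of all genes, and they made up 18 of the 385 values. No gene was both high and low, though with a 2-fold limit Cd81, Ndn and H13 would have been. High on several arrays were Phlda2, Cd81, Tssc4, Meg3 and Sgce, and high on a single array were Dlk1, Cdkn1c, Nnat, Inpp5f and Gatm. On at least 3 arrays 2 genes were high, Phlda2 and Cd81, where 7.59% of all genes were.

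Among the growth-restraining genes of the Kcnq1 cluster, Phlda2 (probe 10569437), a pleckstrin-homology gene that limits placental growth, varied most. Its ratios were 1.13, 101 and 9.93 on the neuroepithelium arrays, 0.994, 0.895, 25.9, 0.887 and 0.797 on the crest arrays and 1.00, 34.2 and 0.910 on the mesoderm arrays. It was thus high on 4 arrays spread over all 3 tissues, and the ranges of the tissues overlapped. The surface ectoderm marker Krt8 was high on these 4 arrays too (33.9 to 36.3). It was also high on 2 where Phlda2 was not, neuroepithelium array 1 (35.2) and paraxial mesoderm array 3 (30.5). The rest of its list was high on only some of the arrays with high Phlda2. On neuroepithelium array 2, where Phlda2 was highest, Krt18 (72.4), Epcam (38.76), Grhl3 (60.03) and Wnt6 (14.99) were high. Grhl3 and Wnt6 were high on no other array, and Trp63 was high on none. Krt18 and Epcam were high on neuroepithelium array 3 too, and also on neuroepithelium array 1, where Phlda2 was not. On crest array 3 Krt18, Epcam, Grhl3, Trp63 and Wnt6 lay at 0.889 to 1.17. On paraxial mesoderm array 2 Krt18 was high (88.8), while Epcam, Grhl3, Trp63 and Wnt6 lay at 0.869 to 1.00. Of the whole list of 6 surface ectoderm markers 3 to 5 were high on each neuroepithelium array, 0 or 1 on a crest array and 0 to 2 on a mesoderm array, with summed ratios of 155 to 221, 5.21 to 41.4 and 4.87 to 127. Their part in the Phlda2 values was not tested. The 4 measured trophoblast markers lay near their reference on every array (summed ratio 3.84 to 4.19).

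Cdkn1c (probe 10569429), an inhibitor of cyclin-dependent kinases, behaved differently. It lay at 0.901, 1.08 and 0.855 in neuroepithelium and at 1.31, 0.828, 1.22, 1.00 and 0.866 in crest, and at 0.746, 2.6 and 42.4 in mesoderm. Paraxial mesoderm array 3 alone was high.

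At the other end of the same cluster lie Cd81, a tetraspanin of the cell surface, and Tssc4, which are adjacent protein-coding genes. Cd81 (probe 10559261) had ratios of 1.10, 0.446 and 1.26 in neuroepithelium, 0.488, 4.32, 21.8, 20.2 and 1.69 in crest, and 0.381, 1.00 and 0.492 in mesoderm. Crest arrays 2, 3 and 4 were the only high ones, while crest array 1 lay among the lowest, so the tissues overlapped. Tssc4 (probe 10559270) was high on neuroepithelium array 3 (25.6) and crest array 2 (29.4) and at 0.918 to 2.06 on the other 9 arrays. Crest array 2 was thus the only array on which both neighbours were high.

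In the Dlk1 to Meg3 cluster the paternally expressed Dlk1, a Notch-like ligand of progenitor cells, and the maternally expressed long noncoding RNA Meg3 were high on different arrays. Dlk1 (probe 10398319) reached 11.2 on paraxial mesoderm array 2 and lay between 0.545 and 1.37 on all other arrays. Meg3 (probe 10398326) had 0.990, 0.937 and 1.62 in neuroepithelium, 1.00, 3.77, 13.3, 0.978 and 2.07 in crest, and 0.786, 0.890 and 23.5 in mesoderm. Where Dlk1 was high Meg3 was at 0.890, and on the 2 arrays where Meg3 was high Dlk1 was at 0.842 and 1.00. So few high arrays cannot show whether Dlk1 and Meg3 go in opposite directions.

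Sgce (probe 10542965), which encodes epsilon-sarcoglycan of the muscle and neuronal membrane, was high in mesoderm alone. The mesoderm arrays had 0.983, 30.5 and 91.9, the neuroepithelium arrays 1.03, 0.918 and 0.982, and the crest arrays 0.837, 1.04, 1.13, 1.00 and 1.04. Paraxial mesoderm array 1 lay with the other tissues. Peg10, the next protein-coding gene on chromosome 6 and also paternally expressed, lay at 0.920, 1.08 and 1.11 on the same 3 mesoderm arrays.

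Of the remaining high genes 2 belonged to paraxial mesoderm array 2. Gatm (probe 10487011), which makes the precursor of creatine, stood at 27.5 there, at 3.13 on crest array 2 and at 0.956 to 1.16 elsewhere. Nnat (probe 10477986), a small membrane protein gene of the developing nervous system, stood at 5.42 there, at 3.15 on crest array 2 and at 0.537 to 1.25 elsewhere. Inpp5f (probe 10558001), a phosphoinositide phosphatase gene, was high only on paraxial mesoderm array 1 (4.99), the array with the red blood cell genes, and lay at 0.947 to 1.12 on the other 10. Igf2 (probe 10569344), the growth factor of the list, did not reach the limit: its highest ratio was 2.13 on crest array 3, and the others ran from 0.790 to 1.11.

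**Figure D2:**
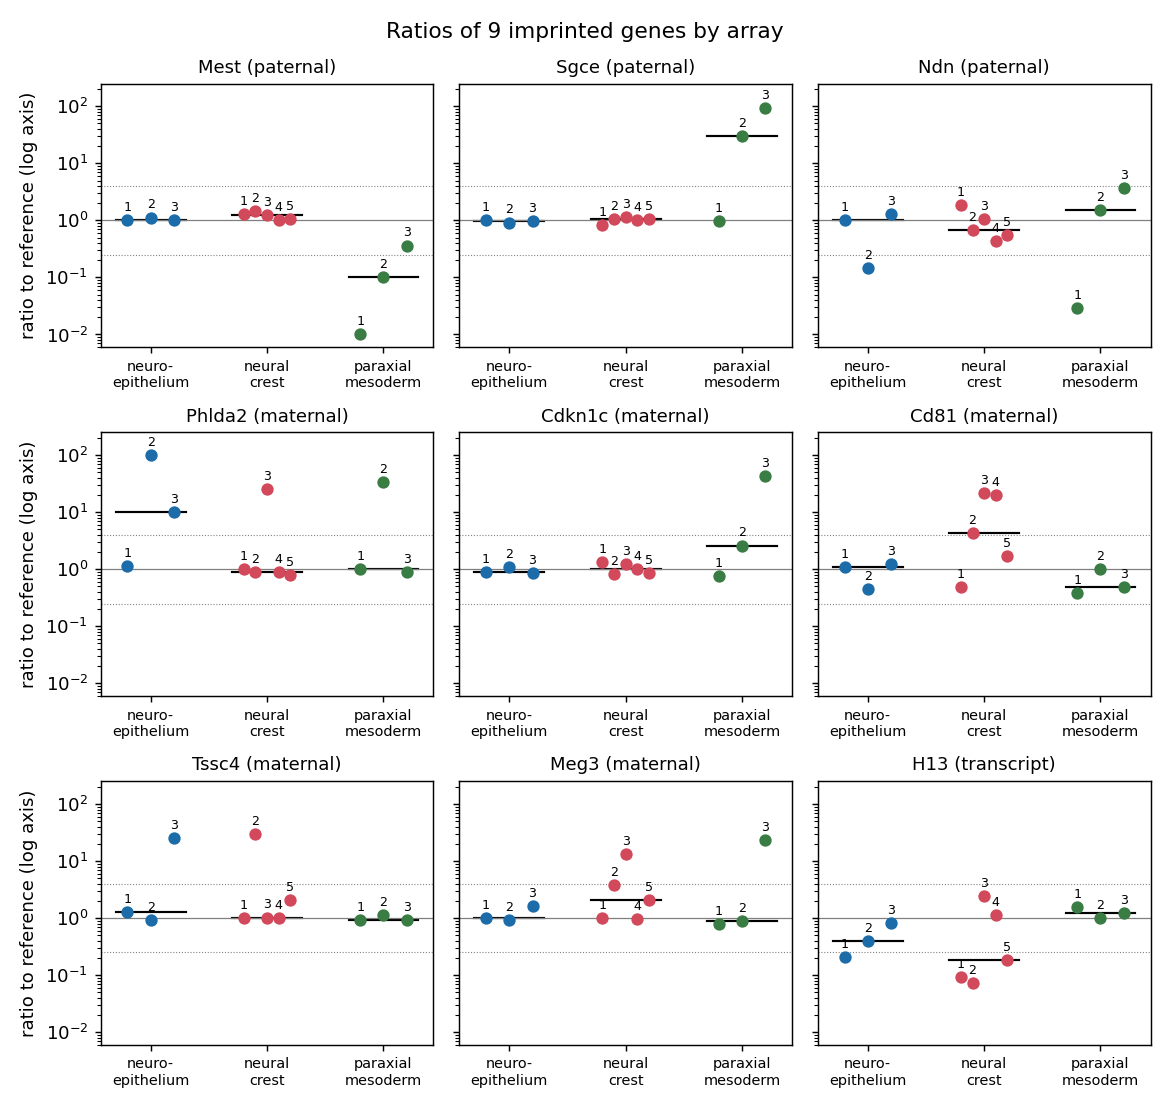
Ratio to the reference of the probe (log axis) for 9 imprinted genes on each array, numbered by replicate, with the median of each tissue as a black bar and dotted lines at the 4-fold limits. Mest separates mesoderm from both other tissues, and Sgce is high on mesoderm arrays 2 and 3 but not on array 1. Phlda2 is high on neuroepithelium arrays 2 and 3, crest array 3 and mesoderm array 2. Tssc4 is high on neuroepithelium array 3 and crest array 2.

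Low values were found for 3 of the 35 genes (8.57%), against 4.77% of all genes, and they made up 8 of the 385 values. On at least 3 arrays H13 alone was low, where 2.43% of all genes were. Mest (probe 10537062), a hydrolase-like gene named for its transcript in mesoderm, lay at 1.00, 1.12 and 1.00 in neuroepithelium, at 1.28, 1.46, 1.26, 1.02 and 1.05 in crest, and at 0.01, 0.102 and 0.363 in paraxial mesoderm. All 3 mesoderm arrays lay below all 8 others, and within mesoderm they spanned over an order of magnitude. The value of 0.01 on mesoderm array 1 is the lowest ratio deposited, shared with 36 other values among 219318, so it may be a bound and not a measurement. Copg2, the neighbour of Mest and a subunit gene of the vesicle coat, stayed at 0.914 to 1.18 on all arrays.

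Ndn (probe 10553833), which encodes the neuronal growth suppressor necdin, had 1.00, 0.146 and 1.31 in neuroepithelium, 1.89, 0.670, 1.04, 0.428 and 0.549 in crest, and 0.0292, 1.5 and 3.67 in mesoderm. It was low on 1 neuroepithelium array and on 1 mesoderm array, with its highest ratio in mesoderm as well. Its neighbour Magel2 lay at 0.888 to 1.23 on all arrays. Both Mest and Ndn were lowest on paraxial mesoderm array 1, the array with high erythrocyte genes. The part of these cells in the low values was not tested.

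H13 (probe 10477147), which encodes signal peptide peptidase, was low on 4 arrays. It had 0.210, 0.399 and 0.826 in neuroepithelium, 0.0927, 0.0730, 2.48, 1.14 and 0.185 in crest, and 1.57, 1.00 and 1.23 in mesoderm. The crest arrays fell apart into 3 low and 2 at or above the reference, while mesoderm stayed above neuroepithelium on every array. Mcts2, a paternally expressed retrogene that lies within H13 and derives from Mcts1, was high on crest arrays 2 (4.45), 3 (8.05) and 4 (22.9) and on paraxial mesoderm array 2 (94.7). On these arrays H13 stood at 0.0730, 2.48, 1.14 and 1.00. The value of Mcts2 is uncertain, since its probe may also take up Mcts1 transcripts, which was not tested.

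By array, the high and low values were uneven. Paraxial mesoderm array 2 held 5 high genes of 35 (Dlk1, Gatm, Nnat, Phlda2 and Sgce), where 4.03% of all genes were high, and 1 low gene (Mest), where 1.1% were low. Paraxial mesoderm array 3 held 3 high genes (Cdkn1c, Meg3 and Sgce), where 1.91% of all genes were high, and none that were low (background 2.27%). Paraxial mesoderm array 1, with the largest background of high genes (8.11%), held 1 high gene (Inpp5f) and 2 low ones (Mest and Ndn), where 0.542% of all genes were low. So the mesoderm arrays differed from each other, and Sgce and Mest were the only genes high or low on more than 1 of them.

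The crest arrays shared few genes either. Crest array 3 held 3 high genes (Cd81, Meg3 and Phlda2; background 5.34%), crest array 2 held 2 (Cd81 and Tssc4; 5.81%) and crest array 4 held 1 (Cd81; 2.06%). Crest arrays 1 and 5 held none (2.06% and 7.52%). H13 was the only low gene, on crest arrays 1, 2 and 5 (backgrounds 2.52%, 0.366% and 0.336%), with no low gene on crest arrays 3 and 4 (0.692% and 1.49%). Among the neuroepithelium arrays, array 1 held no high gene (3.69%) and 1 low gene (H13; 0.757%). Array 2 held 1 high (Phlda2; 2.91%) and 1 low (Ndn; 2.03%), and array 3 held 2 high (Phlda2 and Tssc4; 5.63%) and no low gene (0.507%).

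Over the tissues, 8 genes were high on at least 1 of the 3 mesoderm arrays, 4 on at least 1 of the 5 crest arrays and 2 on at least 1 of the 3 neuroepithelium arrays, against 12.0%, 14.3% and 9.80% of all genes. Low on at least 1 array were 2 genes in mesoderm, 1 in crest and 2 in neuroepithelium, against 3.18%, 3.65% and 2.58% of all genes.

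**Figure D3:**
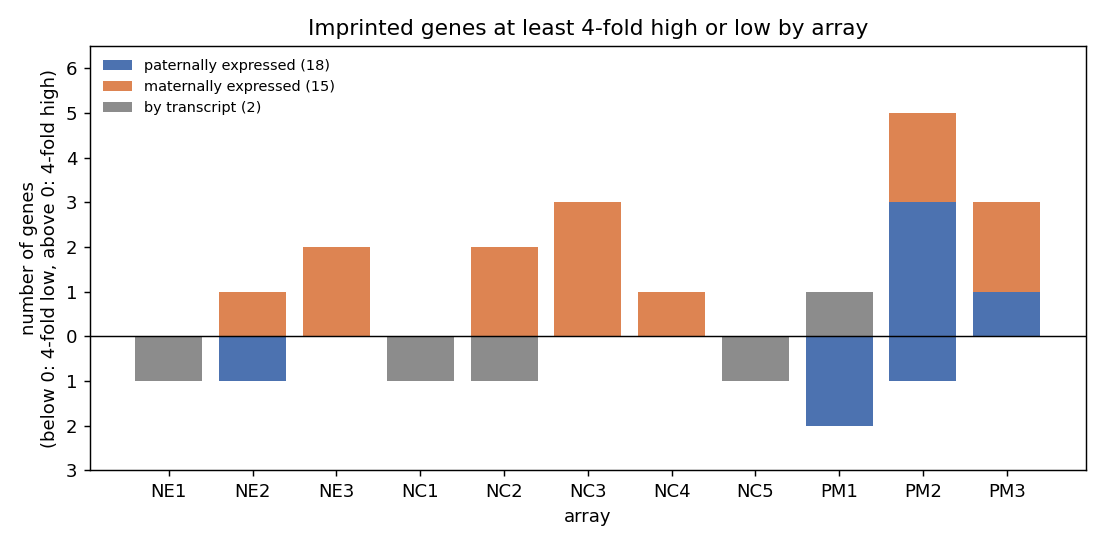
Number of imprinted genes at least 4-fold high (above 0) and at least 4-fold low (below 0) on each array, coloured by active parental allele. Maternally expressed genes account for every high gene on the neuroepithelium and crest arrays, and the low genes are paternally expressed or depend on the transcript.

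The parental classes were then set side by side. Of 15 maternally expressed genes 6 were high on at least 1 array (Cd81, Cdkn1c, Gatm, Meg3, Phlda2 and Tssc4) and 0 were low, with 13 high values in 165. Their share with a high value was 40%, against 21.7% of all genes, and 4.77% of all genes were low. Of 18 paternally expressed genes 3 were high (Dlk1, Nnat and Sgce) and 2 were low (Mest and Ndn), with 4 high and 4 low values in 198. Their share with a high value, 16.7%, lies near that of all genes, and their share with a low value was 11.1%. Without paraxial mesoderm array 2, on which alone Dlk1 and Nnat were high, 1 paternally expressed gene was high (Sgce). The maternally expressed Gatm was also high on that array alone, so the count of its class falls too. The 4 high values of paternally expressed genes lay on mesoderm arrays 2 (3 values) and 3 (1 value) and on no neuroepithelium or crest array. Of the 13 high values of maternally expressed genes 9 lay on neuroepithelium and crest arrays, which are 3 and 5 of the 11 arrays. High on at least 1 array of neuroepithelium, crest and mesoderm were 9.8%, 14.3% and 12.0% of all genes. High values on neuroepithelium and crest arrays were thus common among all genes too. Members of a class share clusters: 4 of the 6 high maternally expressed genes belong to the Kcnq1 cluster. Cd81, Tssc4 and Gatm gave 3, 2 and 1 of the 13 high values, and their imprinting is known mainly from the placenta or yolk sac. Their class may therefore not hold in these samples, and the contrast between the classes rests partly on them. The middle gene of either class stayed near its reference: the median ratio per array ran from 0.919 to 1.06 for the paternally expressed and from 0.978 to 1.02 for the maternally expressed genes. The mean log2 ratio of the paternally expressed genes minus that of the maternally expressed genes was 0.18 on crest array 1 and between -0.82 (crest array 3) and -0.09 (neuroepithelium array 1) on the other 10 arrays. The classes hold different genes with few extreme values each, so no test was made of this difference.

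Differences between the tissues were tested gene by gene with limma over all 19938 genes. None of the 35 imprinted genes passed in any comparison or in the test among the 3 tissues. In neural crest against neuroepithelium 0.0301% of all genes passed (0.01% higher and 0.0201% lower), in neural crest against paraxial mesoderm 0.01%, in paraxial mesoderm against neuroepithelium 0.015% and among the 3 tissues 0.0301%. At an unadjusted p below 0.05 there were 1, 3 and 2 imprinted genes, where 2.79%, 2.89% and 2.48% of all genes reached that level. The median log2 difference of the 35 genes was 0.04, -0.01 and 0.0048, against 0.00053, 0.0024 and -0.0028 over all genes. Each pair of comparisons shares the arrays of 1 tissue.

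Mest had the largest differences between tissues. It was higher in crest than in mesoderm by 4.07 on the log2 scale (SE 0.92, means 0.27 ± 0.21 and -3.80 ± 2.63 SD, n = 5 and 3 arrays, limma adjusted p = 0.9998), with no overlap of the arrays. In mesoderm against neuroepithelium its difference was -3.85 (SE 1.03, mean 0.06 ± 0.10 in neuroepithelium, n = 3 and 3, limma adjusted p = 0.9999), again with no overlap. Without mesoderm array 3 the first difference was 5.23 and passed (limma adjusted p = 0.0467), and without mesoderm array 1 it was 2.64 (0.204). In mesoderm against neuroepithelium these values were -5.02 and -2.43. Mest passed in 1 of 23 settings of the first comparison and in 0 of 23 of the other.

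Sgce came next, in the opposite direction. Its difference was -3.80 for crest against mesoderm (SE 1.19, limma adjusted p = 0.9998) and 3.85 for mesoderm against neuroepithelium (SE 1.33, limma adjusted p = 0.9999), with mesoderm array 1 inside the range of the other tissues. Without that array, which also carried the erythrocyte genes, the differences were -5.72 and 5.76 and both passed (limma adjusted p = 0.00135 and 0.00197). Without mesoderm array 3 they were -2.44 and 2.49, and with ratios held between 0.1 and 10 they were -2.20 and 2.24. Sgce passed in 1 of 23 settings in each comparison.

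Other genes of the list with a difference of at least 2 rested on few arrays and overlapped between tissues. Cd81 differed by 2.36 between crest and neuroepithelium (SE 1.22) and by 2.93 between crest and mesoderm (SE 1.22), in both cases with crest array 1 among the lower arrays. Cdkn1c differed by -2.08 between crest and mesoderm (SE 1.05) and by 2.21 between mesoderm and neuroepithelium (SE 1.17), which became -0.44 and 0.57 without mesoderm array 3 and -3.35 and 3.48 without mesoderm array 1. With ratios held between 0.1 and 10 the difference of Cdkn1c between crest and mesoderm was -1.39. Phlda2 differed by -2.57 between crest and neuroepithelium (SE 1.87), which became -0.94 without neuroepithelium array 2, -4.18 without neuroepithelium array 1 and -1.15 with array weights. For these 5 differences the limma adjusted p was 0.99984 to 0.99995.

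Arrays without overlap between tissues occurred for few of the genes. In crest against neuroepithelium Impact alone did not overlap, with crest lower by a log2 difference of -0.45 (SE 0.17), so 1 of 35 genes (2.86%) against 2.98% of all genes (1.45% higher and 1.53% lower). The difference of Impact was -0.19 without neuroepithelium array 2 and -0.90 with quantile normalization. In crest against mesoderm it was Mest alone, again 2.86% against 2.66% (1.46% higher and 1.2% lower). In mesoderm against neuroepithelium there were 3 of 35 (8.57%) against 6.85% of all genes (2.82% higher and 4.02% lower): Mest lower, and H13 (1.60, SE 1.31) and the amino acid transporter gene Slc38a4 (0.12, SE 0.06) higher in mesoderm. The limma adjusted p of Impact, H13 and Slc38a4 was 0.99994 to 0.99995 in these comparisons. These shares lie near those of all genes.

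**Figure D4:**
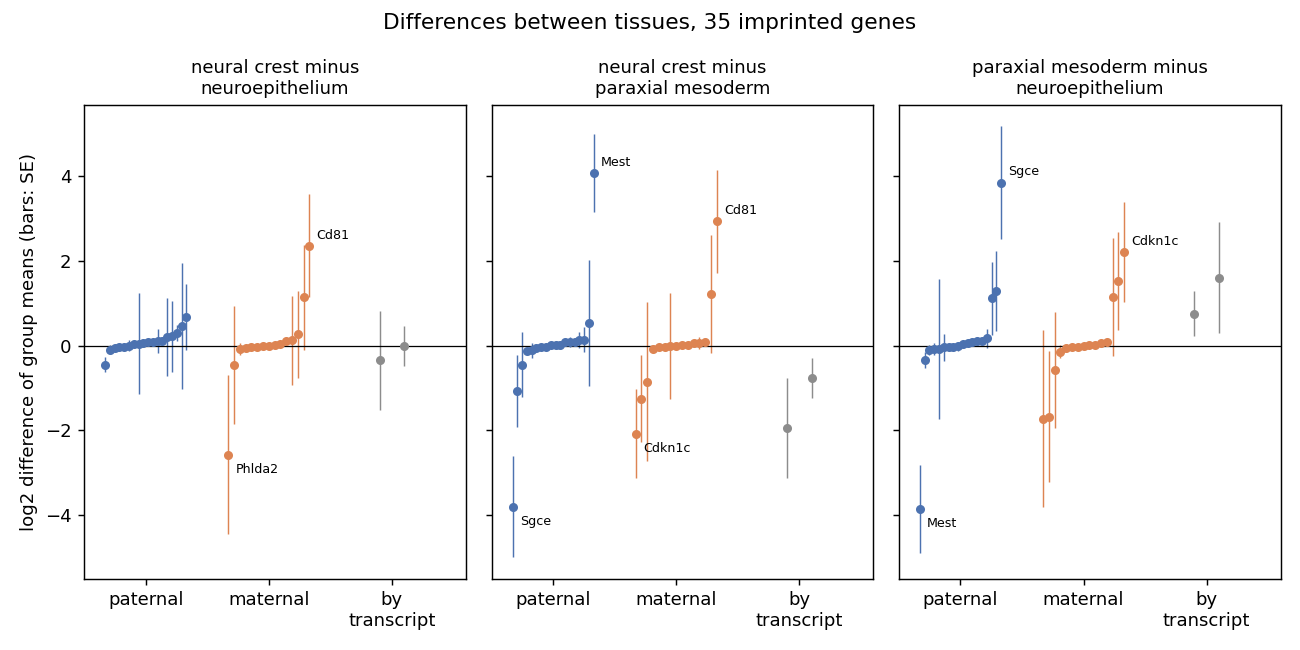
Log2 difference of group means with its SE for each of the 35 imprinted genes in the 3 comparisons, by active parental allele. Mest (4.07 and -3.85) and Sgce (-3.80 and 3.85) lie farthest from 0. Many genes lie near the zero line, while others such as Cd81, H13, Gatm and Dlk1 lie in between.

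Genes that work with or beside the imprinted genes were taken from 3 lists. Over all genes 21.7% were high and 4.77% low on at least 1 array. Without overlap were 2.98% of all genes in crest against neuroepithelium, 2.66% in crest against mesoderm and 6.85% in mesoderm against neuroepithelium. Of 22 measured genes that act on imprints or DNA methylation, such as Dnmt1, Dnmt3a, Uhrf1, Trim28 and Zfp57, 0 passed in any comparison. On at least 1 array 5 of them were high and 0 were low. Those whose arrays did not overlap moved little: Dnmt3b, a de novo methyltransferase, had a log2 difference of 0.29 for crest against mesoderm and of -0.35 for mesoderm against neuroepithelium, with mesoderm the lowest tissue in both. Uhrf1, which guides Dnmt1 to replicating DNA, had 0.28 in crest against neuroepithelium, and Tet2, which oxidises methylcytosine, 0.06 in crest against mesoderm.

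Of 37 other imprinted genes 30 were measured and 0 passed. On at least 1 array 5 were high and 1 was low, against 21.7% and 4.77% of all genes. Nap1l4, the neighbour of Phlda2, was high only on paraxial mesoderm array 2 (37.0), one of the arrays where Phlda2 was high (34.2). On neuroepithelium array 2, where Phlda2 was at 101, Nap1l4 lay at 0.963. Pon2, an enzyme of the paraoxonase family in the Peg10 cluster, was high only on crest array 5 (32.9), and its mesoderm arrays (1.05 to 1.09) lay above its neuroepithelium arrays (0.963 to 1.03). Commd1, the host gene of the imprinted Zrsr1, was low on 4 arrays, crest arrays 1 (0.0543) and 3 (0.230) and mesoderm arrays 2 (0.0551) and 3 (0.0738).

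Of 18 genes of IGF signalling 16 were measured and 0 passed. On at least 1 array 6 were high and 0 low, against 21.7% and 4.77% of all genes. Igf2bp1, which binds Igf2 messenger RNA, was high on 5 arrays (neuroepithelium arrays 2 and 3, crest arrays 1 and 5, mesoderm array 1) with ratios of 14.5 to 89.7. Igfbp2, a binding protein of the IGF ligands, had 37.3, 3.29 and 1.65 in neuroepithelium and 0.746 to 1.40 in mesoderm (log2 difference -2.53, SE 1.02). Igfbp4 had 1.14 to 11.1 in crest and 0.801 to 0.898 in neuroepithelium (1.41, SE 0.70), and the kinase gene Akt1 had 1.00 to 12.9 against 0.795 to 0.985 (1.5, SE 1.06). Igf1, Insr and Igfbp5 also had 1 comparison each without overlap, with log2 differences of -0.06, 0.07 and -0.30. None of these differences passed in limma (adjusted p = 0.99984 to 0.99995).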

How the data were processed

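Gene expression was measured on 11 arrays, 1 per sample, of neuroepithelium (3), neural crest (5) and paraxial mesoderm (3), grouped by the labels. Each deposited value is a linear ratio to a reference of its own probe, with column medians of 0.991 to 1.01. RMA and the build mm9 are named per the submitters' processing notes, and none of the sources used here gives the steps by which the authors made the ratios. Of 35557 probes 6701 were blank. The platform annotation gave 1 symbol to 21789 probes, several to 1621 and none to 5446, and the latter groups were left out. A RefSeq table (GRCm38.p6) was used for names (21698 matched, 0 changed) and promoter sequences. The probe with the highest mean log2 ratio stood for a gene, which gave 19938 genes.

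Log2 ratios were taken without a pseudocount. Group means over 11 arrays were fitted with lmFit and eBayes in limma 3.58.1 under R 4.3.3, with no intensity trend because ratios carry no intensity, two-sided, and adjusted by Benjamini-Hochberg over all genes at a threshold of 0.05. The script was tested on simulated data. The number of arrays limits precision, and p-values measure only the spread between these arrays. The members, classes, lists and tests were chosen with earlier results of these data known. A difference with its test is given where the arrays of the tissues did not overlap or the log2 difference reached 2. Of the lists, genes are named that did not overlap or were high or low on at least 3 arrays. Marker genes are named where they describe an array. The fit without the replicate number as a block is reported.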

Additional observations from a re-analysis of the deposited data

Results flagged for a closer look

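Within neural crest, the only tissue with enough arrays, 7 of the 35 genes had an array far from the other 4 on the log2 scale, with the gap to the nearest array above 0.71 of the whole range. The nominal rate is about 1 group in 20, but 2991 of all 19938 genes (15%) met the same limit on these arrays, against 20% of the 35. Phlda2 stood at 25.9 on crest array 3 against 0.797 to 0.994 on the other crest arrays. Tssc4 stood at 29.4 on crest array 2 against 0.992 to 2.06, and Gatm at 3.13 on the same array against 0.956 to 1.02. Igf2 stood at 2.13 on crest array 3 against 0.790 to 1.00. The other 3 were small in size: Rtl1 at 1.23 on crest array 1 (0.973 to 1.04), Copg2 at 1.18 on crest array 4 (0.963 to 1.02) and Rasgrf1 at 0.914 on crest array 3 (0.989 to 1.00).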

How the results depend on the processing

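The 12 named differences of imprinted genes were refitted under up to 22 alternatives each, and 259 of 262 refits kept direction and side of the threshold. The exceptions are the Mest and Sgce values without 1 mesoderm array given above. The count of imprinted genes past the threshold was 0 to 1 with 1 array left out in neural crest against paraxial mesoderm, 0 to 1 in paraxial mesoderm against neuroepithelium and 0 to 1 among the 3 tissues, and 0 to 0 in neural crest against neuroepithelium. Over all genes 6, 2, 3 and 6 passed in neural crest against neuroepithelium, neural crest against paraxial mesoderm, paraxial mesoderm against neuroepithelium and among the 3 tissues. With 1 array left out these counts ran from 5 to 19, 1 to 43, 3 to 39 and 5 to 42, the highest without neuroepithelium array 2 and, for the last 3, without paraxial mesoderm array 3. With the intensity trend they were 2, 0, 2 and 3. With scale normalization neural crest against paraxial mesoderm gave 0 and the test among the 3 tissues 3. With only the 2 tissues compared, neural crest against neuroepithelium gave 11 and paraxial mesoderm against neuroepithelium 5. With the replicate number as a block they were 6, 3, 2 and 5, with 0 imprinted genes. The labels do not say whether the replicate numbers pair the samples, so they were not taken to do so. Deviations of same-numbered arrays correlated at -0.153 to 0.0505, which cannot show whether embryos were shared. The cause of these changes in the counts was not tested. With a 2-fold limit, 5 paternally expressed genes were high and 1 maternally expressed gene low on at least 1 array. Of Inpp5f and H13, 2 were high with that limit and 0 with an 8-fold limit, against 1 with the 4-fold limit. With 1 array left out, 7 to 10 imprinted genes were high and 3 to 3 low. By class, the high genes numbered 1 to 3 paternally expressed (lowest without paraxial mesoderm array 2), 5 to 6 maternally expressed and 0 to 1 by transcript (lowest without paraxial mesoderm array 1).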
